A study of Mus musculus with 6 samples.

Results

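The genes described here are 10, of 19057 named by a probe, that regulate terminal maturation and tissue egress in lymphocytes: the zinc finger and homeobox factors Zeb1 and Zeb2, the T-box factors Tbx21 (T-bet) and Eomes, the repressor Prdm1 (Blimp-1), the helix-loop-helix inhibitors Id2 and Id3, the Krüppel-like factor Klf2 and the sphingosine 1-phosphate receptors S1pr1 and S1pr5. They were read in mature NKT cells of the thymus, innate-like T lymphocytes that see lipid antigens on CD1d, sorted as CD44+ and NK1.1+ on a C57BL/6 background. One group came from Captain Morgan mice, an animal strain deficient in DOCK8, an exchange factor for the small GTPase CDC42, and the other from wild type mice. Each group held 3 biological replicates with 1 Illumina array each. The labels give neither age nor the number of animals behind a replicate, so the tests cover only the variation among these samples, which may be partly technical. The arrays carried 45281 probes, of which 20 name 1 of the 10 genes alone. The members were chosen by gene name with earlier results of these data in view, including the rise of Zeb2, and each probe was kept by its detection p-value: under 0.05 on 3 or more of the 6 arrays. That left 11 probes of 7 genes, while 9 probes were not detected, among them every probe of Eomes, Prdm1 and S1pr1.

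T-bet drives the late maturation of NKT and NK cells, and in mouse NK and CD8 T cells ZEB2 acts with T-bet to complete that programme, which includes S1pr5. ZEB1 and ZEB2 bind similar E-box sequences and can act in opposite ways. KLF2 activates S1pr1, whose product senses the sphingosine 1-phosphate gradient by which T cells leave the thymus, and S1PR5 serves the exit of NK cells. ID2 and ID3 hold E proteins in check and shape NKT cell numbers and subsets, and Blimp-1 represses genes of less differentiated lymphocytes. In bulk RNA, fewer cells with a transcript and less transcript per cell cannot be told apart.

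The question put to these genes was whether Zeb2 moves together with T-bet, Klf2 and the S1P receptors. The windows around their annotated starts are shown to place the genes and the motifs of the factors named, each running from 250 bases before to 50 bases after the start, from RefSeq on GRCm38.p6. Capitals mark 3 motifs searched on both strands: the E-box bound by ZEB proteins, spelled CAGGTG (its opposite strand reads CACCTG), the T-box half-site, spelled TCACAC (its opposite strand reads GTGTGA), and the box of Krüppel-like factors, spelled CACCC (its opposite strand reads GGGTG). The last letters of GGGTG can overlap the first of GTGTGA. The Zeb2 window is that of its most upstream start (chr2:45117393-45117692, minus strand), the Tbx21 window lies at chr11:97115282-97115581 (minus strand), the Klf2 window at chr8:72318812-72319111 (plus strand) and the S1pr5 window at chr9:21248394-21248693 (minus strand).
Zeb2: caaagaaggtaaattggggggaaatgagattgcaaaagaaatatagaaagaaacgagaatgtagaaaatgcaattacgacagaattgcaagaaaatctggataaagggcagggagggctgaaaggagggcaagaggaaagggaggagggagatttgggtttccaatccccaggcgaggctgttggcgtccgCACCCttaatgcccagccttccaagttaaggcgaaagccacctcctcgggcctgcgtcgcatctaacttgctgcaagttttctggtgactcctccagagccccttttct
Tbx21: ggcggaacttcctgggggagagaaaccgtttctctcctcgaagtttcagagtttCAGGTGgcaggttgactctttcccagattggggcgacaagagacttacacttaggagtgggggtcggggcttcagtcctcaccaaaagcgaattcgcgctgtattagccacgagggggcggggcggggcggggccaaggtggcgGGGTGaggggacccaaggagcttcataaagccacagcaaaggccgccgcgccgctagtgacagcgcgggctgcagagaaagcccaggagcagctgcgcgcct
Klf2: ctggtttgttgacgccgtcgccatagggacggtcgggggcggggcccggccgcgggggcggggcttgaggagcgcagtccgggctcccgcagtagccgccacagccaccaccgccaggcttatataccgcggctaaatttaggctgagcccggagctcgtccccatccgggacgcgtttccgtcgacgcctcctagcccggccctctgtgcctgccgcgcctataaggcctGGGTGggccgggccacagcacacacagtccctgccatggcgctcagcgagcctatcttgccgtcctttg
S1pr5: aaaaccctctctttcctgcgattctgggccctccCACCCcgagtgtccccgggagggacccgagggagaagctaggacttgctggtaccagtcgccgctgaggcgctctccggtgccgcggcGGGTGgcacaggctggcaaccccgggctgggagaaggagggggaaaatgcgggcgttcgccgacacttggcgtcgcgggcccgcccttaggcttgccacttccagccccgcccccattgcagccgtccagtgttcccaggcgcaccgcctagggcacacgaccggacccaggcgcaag
The ZEB E-box appeared once in the Tbx21 window, 196 bases before the start, and in none of the other 3 windows printed. The Prdm1 window, not printed, also held 1. This E-box is present in 20.2% of all 32851 windows. No window of any of the 8 members with one held the T-box half-site, which 14.5% of all windows carry. The CACCC box occurred once in the printed Zeb2, Tbx21 and Klf2 windows and at 2 places in that of S1pr5, against 57.5% of all windows with at least 1. Of the 3 other Zeb2 windows none held the ZEB E-box, and 1 (chr2:45110228-45110527) held 3 CACCC boxes. A match describes letters in these windows and does not show binding.

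Zeb2 was the member that rose in DOCK8-deficient cells. Its probe ILMN_1232121 read 6.83, 7.14 and 6.96 on the normalized log2 scale on DOCK8-deficient arrays 1, 2 and 3, and 5.79, 5.63 and 5.41 on the wild type arrays. Every DOCK8-deficient value lay above every wild type value, with group means of 6.98 ± 0.16 and 5.61 ± 0.19 (SD, n = 3 each). The difference was 1.37 ± 0.16 SE on the log2 scale, or 2.58-fold with a 95% interval of 2.01 to 3.33 (limma adjusted p = 0.0417 over 14559 detected probes). Since the rise was known when the genes were chosen, it is given as a description. Of the probes tested, 0.213% passed in either direction (19 rose, 0.131%, and 12 fell, 0.0824%), and 25 others had larger upward differences than this one.

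The wild type signal of Zeb2 lay close to background. Before any normalization, the probe was 1.499, 1.39 and 1.43 times as bright as the median probe on the DOCK8-deficient arrays and 1.11, 1.09 and 1.07 times on the wild type arrays. Its detection p-values were 0 on each DOCK8-deficient array and 0.016, 0.0267 and 0.0374 on the wild type arrays, just inside the threshold. The fold therefore depended on how background was handled: it was 1.32 without background correction and 1.77 in the deposited log2 table, with adjusted p of 0.0319 and 0.0117. Leaving out any single array kept the difference between 1.27 and 1.46 on the log2 scale but raised the adjusted p above 0.05 (0.0596 to 0.18).

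The other 4 Zeb2 probes did not show the rise. None of them was detected on 3 arrays, and on all 6 arrays their intensities lay between 0.837 and 1.09 times the array median. ILMN_1229830 was detected on 1 array, DOCK8-deficient array 3, and ILMN_1227793, ILMN_2419650 and ILMN_1258778 on 0. The groups overlapped on each of them. The platform table pairs ILMN_1232121, ILMN_1227793 and ILMN_2419650 with the same RefSeq transcript and the other 2 with separate cDNA clones, and the position of each probe in its transcript was not given in the sources used here. The result for Zeb2 thus rests on 1 of its 5 probes.

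**Figure D1:**
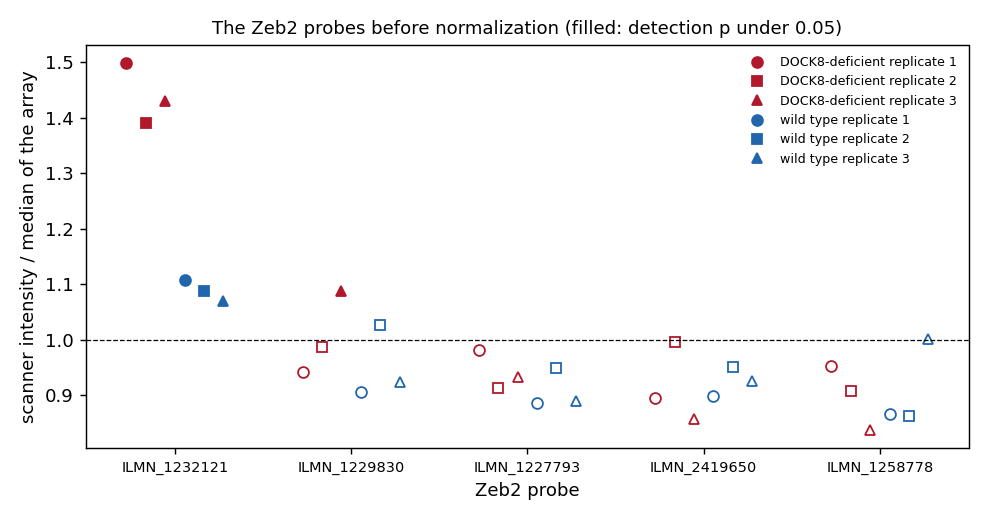
Scanner intensity of each of the 5 Zeb2 probes divided by the median intensity of the same array, for 3 DOCK8-deficient arrays (red) and 3 wild type arrays (blue), with filled points where the detection p-value was under 0.05. ILMN_1232121 lies at 1.39 to 1.499 on the DOCK8-deficient arrays and 1.07 to 1.11 on the wild type arrays, and the other 4 probes scatter around or below 1 in both groups.

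Zeb1, the paralogue of Zeb2, was read by 2 detected probes that did not move alike. ILMN_2492500, the brighter, read 9.68, 9.60 and 9.50 on the DOCK8-deficient arrays and 10.07, 9.96 and 9.92 on the wild type arrays. The groups did not overlap, and the difference was -0.39 ± 0.13 SE with a 95% interval of -0.69 to -0.09 (limma adjusted p = 0.369). ILMN_1251561 read 7.77, 8.09 and 8.02 against 7.56, 8.36 and 7.86. There the groups overlapped and the difference was 0.03, with an interval of -0.46 to 0.53 (adjusted p = 0.976). Neither Zeb1 probe passed the test, so on the brighter probe Zeb1 was lower where Zeb2 was higher, on every array, without reaching the threshold.

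Tbx21, which encodes the T-box factor T-bet, was detected on every array at overlapping levels. Its single probe read 10.52, 10.72 and 10.67 on the DOCK8-deficient arrays against 10.49, 10.61 and 10.98 on the wild type arrays. The difference was -0.06 with a 95% interval of -0.44 to 0.32, or 0.737-fold to 1.25-fold (adjusted p = 0.938). Eomes, its T-box relative, was not detected on any array by either probe, with normalized values between 4.50 and 5.15 that overlapped between groups. Prdm1 was detected on 1 array per probe, on wild type array 2 by ILMN_2744650 and on DOCK8-deficient array 2 by ILMN_2597923. The third-lowest detection p of ILMN_2744650, which decides under the rule, was 0.0769. Prdm1 levels ran from 4.54 to 5.66 and overlapped between groups.

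Id2 was read by 3 probes, all detected on 6 of 6 arrays. ILMN_1228557 read 13.63, 13.56 and 13.47 on the DOCK8-deficient arrays and 13.64, 13.71 and 13.60 on the wild type arrays, a difference of -0.10 with an interval of -0.39 to 0.19 (adjusted p = 0.846). The other Id2 probes differed by 0.03 (-0.44 to 0.50) and -0.10 (-0.42 to 0.23), and all 3 overlapped between groups. Id3 was dim, at 6.79, 6.90 and 6.65 against 6.63, 6.49 and 6.58. The Id3 values did not overlap, although the gap between the closest arrays was small against the spread within each group. The Id3 difference was 0.21 ± 0.13 SE with an interval of -0.09 to 0.52 (adjusted p = 0.646).

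Klf2 read 11.80, 12.31 and 12.11 on the DOCK8-deficient arrays and 11.85, 12.22 and 12.05 on the wild type arrays. These values interleave, and the Klf2 difference was 0.04 with an interval of -0.38 to 0.45, or 0.771-fold to 1.36-fold (adjusted p = 0.97). S1pr1, the receptor that KLF2 activates, was not detected on any of the 6 arrays, with values between 4.59 and 4.90, so no comparison of it could be made. S1pr5 was detected by both of its probes. ILMN_2801385 read 6.16, 6.38 and 6.73 on the DOCK8-deficient arrays and 6.27, 6.45 and 5.93 on the wild type arrays, with overlapping groups and a difference of 0.21 (-0.26 to 0.67, adjusted p = 0.788). ILMN_2691735, detected on 4 arrays, read 5.77, 4.66 and 5.90 against 4.99, 5.43 and 5.82, a difference of 0.03 (-0.78 to 0.84, adjusted p = 0.987).

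**Figure D2:**
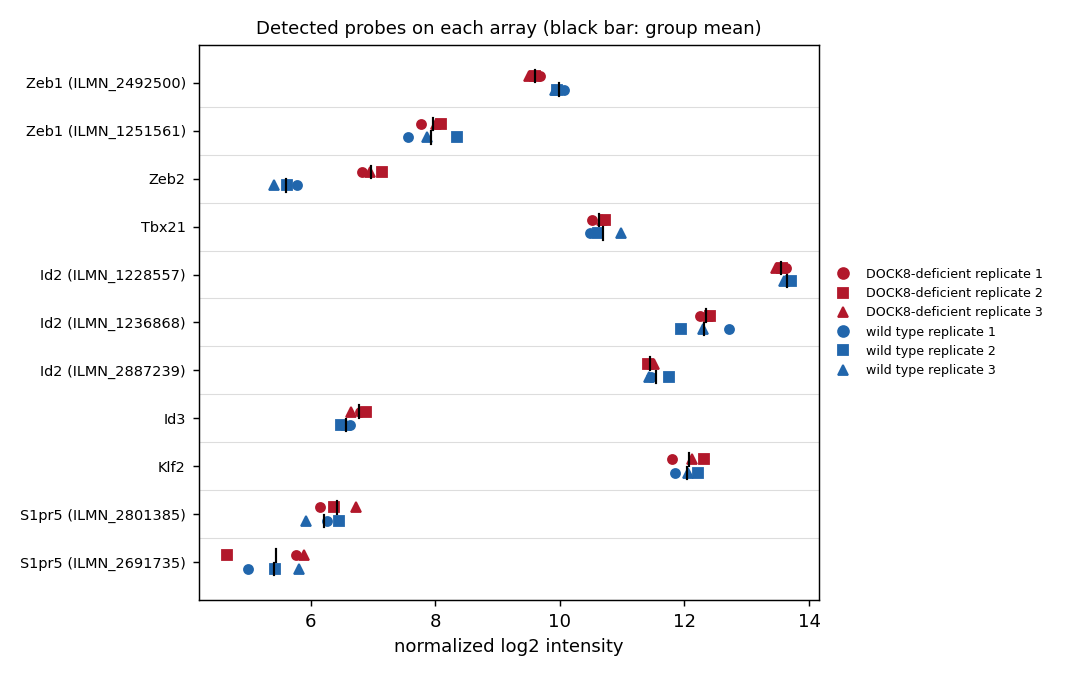
Normalized log2 intensity of the 11 detected probes on 3 DOCK8-deficient arrays (red) and 3 wild type arrays (blue), with the group mean as a black bar. The groups stand apart for Zeb2 (6.83 to 7.14 against 5.41 to 5.79) and by less for Zeb1 on ILMN_2492500, while Tbx21, Id2, Klf2 and S1pr5 overlap.

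Of the 11 detected probes, 1 passed the test (0.213% of all detected probes passed). The groups did not overlap for 3 of the 11, Zeb2 and Id3 upward and Zeb1 on ILMN_2492500 downward, against 15.9% of all detected probes. The 10 probes other than that of Zeb2 had differences of at most 0.39 in size, and their smallest adjusted p was 0.369. None of their 95% intervals reached the 1.37 of Zeb2 in the same fit. That contrast depends on the background step, as the Zeb2 difference was 0.40 without background correction. The upper bounds of the intervals in the main fit were 1.25-fold for Tbx21 and 1.36-fold for Klf2. For S1pr5 they were 1.59-fold on ILMN_2801385 and 1.79-fold on ILMN_2691735.

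**Figure D3:**
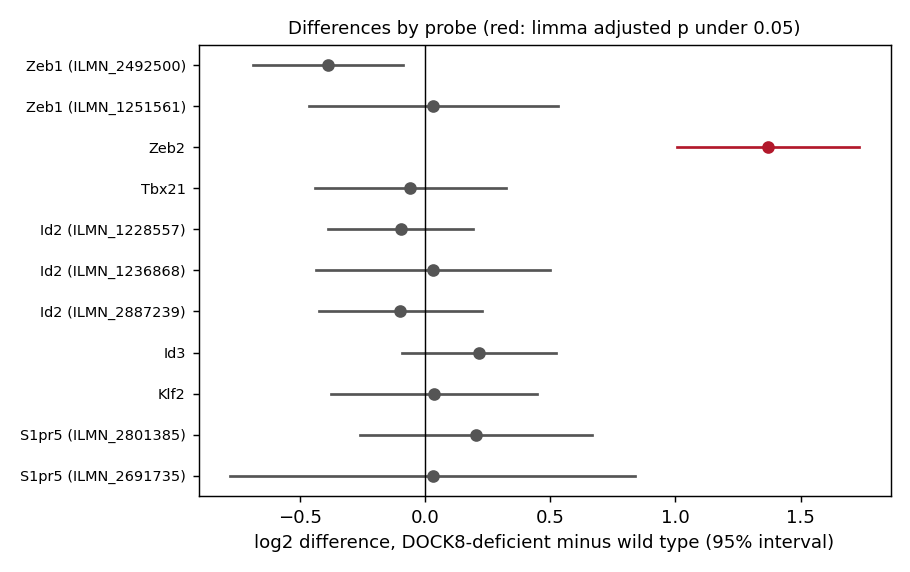
Log2 difference (DOCK8-deficient minus wild type) of each detected probe with its 95% interval, red where the limma adjusted p was under 0.05. Only the Zeb2 probe, at 1.37, is red, and among the others the interval of Zeb1 on ILMN_2492500 (-0.69 to -0.09) does not reach 0.

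Zeb2 was then set against each companion array by array, as the log2 value of its probe minus that of the brightest probe of the other gene. Against Tbx21 the gap was -3.69, -3.58 and -3.71 on the DOCK8-deficient arrays and -4.70, -4.99 and -5.58 on the wild type arrays. The gap to Tbx21 was thus narrower by 1.43 in DOCK8-deficient cells, without overlap (exact permutation test, 2-sided p = 0.1, adjusted p = 0.1 over the 3 genes). Against Klf2 the gap moved by 1.33, from a mean of -6.43 ± 0.33 to -5.10 ± 0.11 (SD, n = 3 each), and against S1pr5 by 1.16, from -0.61 ± 0.19 to 0.55 ± 0.29. Both moves were without overlap, at the same exact permutation p of 0.1. With 3 arrays per group 0.1 is the smallest p the test allows, so none of these differences could pass 0.05. Tbx21, Klf2 and S1pr5 themselves differed by -0.06, 0.04 and 0.21, so each gap mostly restates the Zeb2 rise of 1.37. That rise was known when the genes were chosen, so the 3 gaps are descriptions and no separate support. S1pr1 had no detected probe and was not set against Zeb2.

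The genes whose array profiles were nearest to that of Zeb2 were ranked by the root mean square difference per array, each gene centred on its own mean over the 6 arrays and taken at its brightest detected probe. The nearest 5 of 9059 genes were Tlr1, a Toll-like receptor for lipopeptides (0.14 on the log2 scale), Cd163l1, a scavenger receptor family member (0.143), Pdlim1, a PDZ and LIM protein of the actin cytoskeleton (0.158), Cobll1, a cordon-bleu-like actin protein (0.168), and Kremen2, a receptor for Dickkopf (0.202). Tlr1 was detected on the 3 DOCK8-deficient arrays and on 0 wild type arrays, so its distance and rank rest in part on values not above background. It entered only through the group in which it is high, so its place is no support. On the background-corrected scale of the main fit Tlr1 was at least 1.74-fold higher in DOCK8-deficient cells, and other background steps were not compared for it. The other 4 were detected on all 6 arrays. A flat line lay at 0.70 from Zeb2, and 3667 of the 9059 genes were nearer to Zeb2 than that. Among the members, Id3 (0.593, rank 1071), S1pr5 (0.615, rank 1423) and Klf2 (0.696, rank 3557) were nearer than the flat line, and Id2 (0.748), Tbx21 (0.76) and Zeb1 (0.889, rank 8077) were farther. The Id2 and Tbx21 ranks were 5295 and 5657. These distances are descriptions over 6 arrays and follow the group difference, which was 1.41, 1.45, 1.19 and 1.29 for Cd163l1, Pdlim1, Cobll1 and Kremen2.

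**Figure D4:**
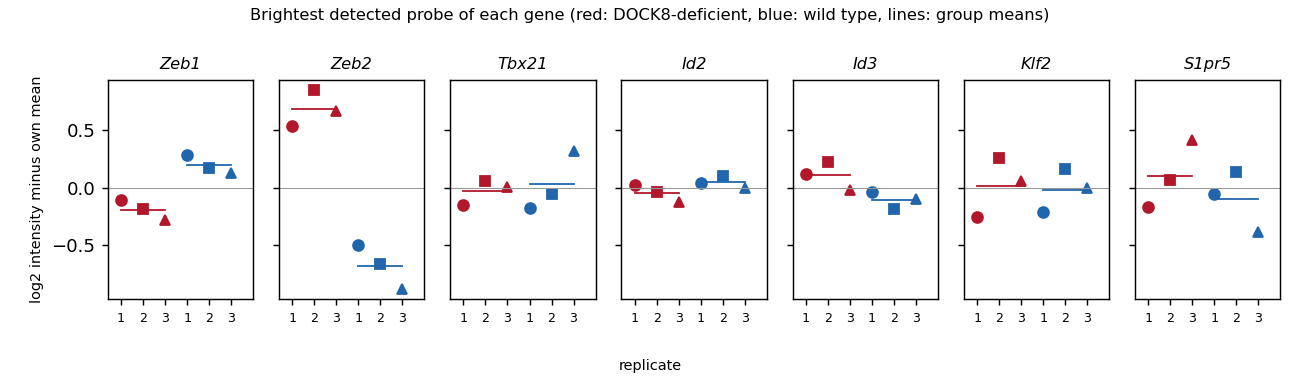
Log2 intensity of the brightest detected probe of each of the 7 detected genes, centred on its own mean over 6 arrays, by replicate (red DOCK8-deficient, blue wild type, lines for group means). Zeb2 separates the groups by 1.37, Zeb1 by -0.39, and the Tbx21, Id2, Klf2 and S1pr5 points interleave.

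Around Zeb2 and Zeb1, 18 of 21 listed corepressors and reported targets of ZEB proteins were detected, taking the brightest probe of each gene. In that list 0 rose and 1 fell by limma at an adjusted p under 0.05, against 0.265% of all 9060 brightest probes in either direction (0.143% higher and 0.121% lower), and the median difference was -0.03 (-0.0049 over all genes, of which 49% lay above 0). The fall was Tgfbr3, the betaglycan co-receptor of TGF-beta, which read 6.51, 6.93 and 6.49 against 8.34, 8.14 and 8.05, a difference of -1.53 ± 0.17 SE (adjusted p = 0.0402). Without any 1 of DOCK8-deficient arrays 1 and 3 or the wild type arrays it stayed between -1.45 and -1.59 but no longer passed (adjusted p from 0.0747 to 0.167), nor did it with the replicate block (0.154). The size depended on the background step, at -0.71 without background correction and -1.07 with normexp per array (adjusted p = 0.00277 and 0.00164). The TGF-beta signalling genes Smad2 and Smad3 differed by 0.05 and -0.08. Itga4, the alpha 4 integrin that ZEB1 represses in other lymphoid cells, read 8.88, 8.39 and 8.63 against 7.46, 7.05 and 6.48, and Il2, another gene on which ZEB1 acts as a repressor, 8.62, 8.62 and 8.80 against 7.71, 7.34 and 7.76. Neither passed (differences 1.63 and 1.07, adjusted p = 0.0719 and 0.0575). Itga4 was singled out after its value was seen. Cdh1, Gata3, Cd4 and Bcl6, further reported targets, differed by between -0.19 and 0.14.

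In the list of terminal maturation genes of NK and effector T cells, 16 of 26 were detected, with 12 higher, 4 lower and 0 that passed limma's test in either direction (0.265% of all genes did), and a median of 0.20. At an unadjusted p under 0.05 the whole fit held 711 higher and 760 lower probes (10.1%). The members of smallest p were Lgals1, which encodes galectin-1, at 12.54, 12.67 and 12.71 against 11.29, 11.77 and 11.69 (difference 1.05 ± 0.16 SE, adjusted p = 0.0719), and Ly6c1 of the Ly6C antigens, at 0.60 ± 0.14 (adjusted p = 0.168). Cx3cr1, a chemokine receptor of terminally matured effector cells, differed by -0.39, and the perforin gene Prf1 by 0.03, with -0.47 on a second probe. Klrg1, Gzmb, Gzmk, Itgam, Cma1 and Kit had probes but were not detected.

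The S1P pathway list had 11 of 20 members detected, with 5 higher, 6 lower, 0 that passed and a median of -0.11. The other receptors S1pr2 and S1pr4 read 9.42 and 7.64 in the mean of DOCK8-deficient cells and 9.34 and 7.82 in wild type cells, without passing. Cd69, whose product binds S1PR1 and takes it from the cell surface, read 12.40, 11.70 and 12.02 against 11.07, 11.43 and 11.04. Its groups did not overlap, and the difference was 0.86 ± 0.21 SE (adjusted p = 0.192). The acid ceramidase gene Asah1 differed by -0.31 ± 0.13 SE (adjusted p = 0.466). The sphingosine kinase gene Sphk1 and the S1P exporter gene Spns2 were not detected.

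The KLF2 and FOXO1 homing list had 13 of 17 members detected, with 8 higher, 5 lower, 0 that passed and a median of 0.05. Klf6, another Krüppel-like factor, read 13.57, 13.20 and 13.63 against 12.91, 12.90 and 12.78 (difference 0.60 ± 0.16 SE, adjusted p = 0.23), and the chromatin organiser gene Satb1 differed by -0.36 ± 0.13 (adjusted p = 0.423). Itgb7, an integrin chain controlled by KLF2, differed by 0.26 and Il7r, the IL-7 receptor gene, by -0.15. Foxo1 differed by 0.05, at 9.12 to 9.22 against 8.93 to 9.54.

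The T-bet and EOMES list had 16 of 23 members detected, 7 higher, 9 lower and 0 that passed, with a median of -0.04. Ccl3 and Ccl5, chemokine genes of activated NKT and NK cells, differed by -1.18 ± 0.30 and -0.49 ± 0.19 SE (limma adjusted p = 0.219 and 0.458). Ccl3 lay near background in DOCK8-deficient cells, where it was detected on 2 arrays, and its difference was -0.33 without background correction. The T-bet target genes Cxcr3 and Ifng differed by 0.05 and 0.51 (adjusted p = 0.947 and 0.459). The ID and E protein list had 12 of 18 detected, 6 on each side and 0 that passed, with a median of -0.02, Socs3 at 0.63 ± 0.19 (adjusted p = 0.307), and the E protein genes Tcf4 at -0.08 and Tcf12 at 0.01. Among 8 detected of 14 counterparts of Blimp-1, 4 were on each side and 0 passed, with a median of 0.07. Il2, given above, and Fos (0.48 ± 0.18, adjusted p = 0.425) had the smallest p there.

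**Figure D5:**
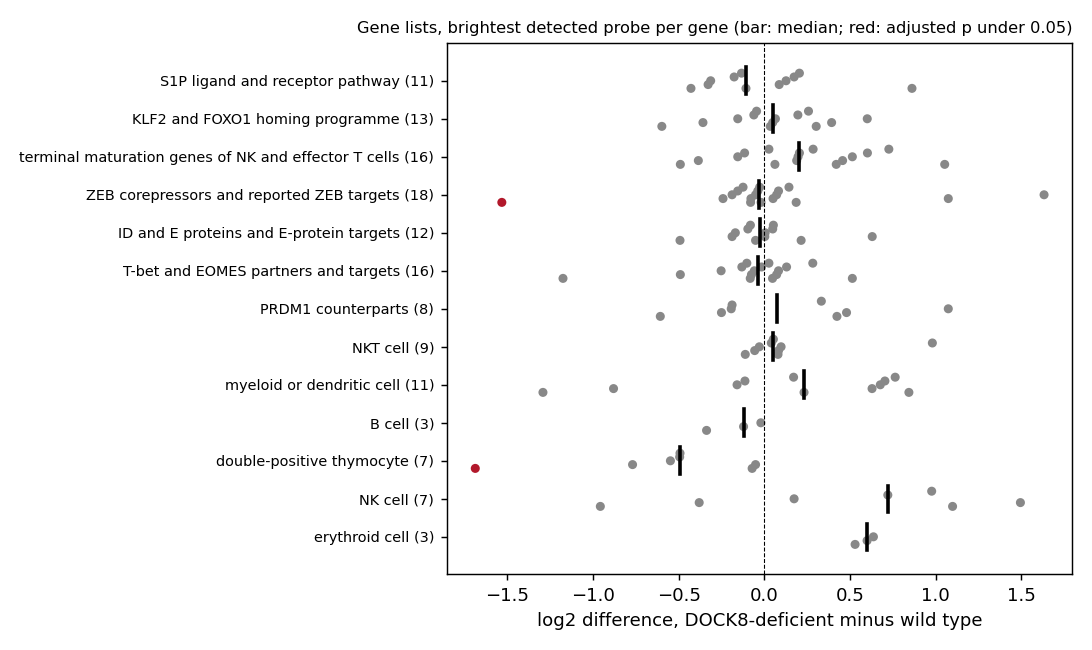
Log2 difference (DOCK8-deficient minus wild type) of the brightest detected probe of each gene, by list, with the number of detected genes in brackets, the list's median as a bar, and genes with an adjusted p under 0.05 in red. Tgfbr3 at -1.53 and Dntt, undetected on the DOCK8-deficient arrays and plotted at its fitted -1.69, are the red points, and the medians of the 7 pathway lists lie between -0.11 and 0.20.

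The labelled cell type and other cells were checked by markers. All 9 NKT and T cell markers with a named probe were detected, including Cd3e, Klrb1c for NK1.1, Cd44 and Zbtb16, and 0 passed the test. The 2 of smallest p were Cd5, a T cell surface receptor, and Zap70, a kinase of T cell receptor signalling. Cd5 was detected on 2 DOCK8-deficient arrays and 1 wild type array and read 5.19, 6.31 and 6.94 against 5.10, 5.60 and 4.80, with overlapping groups and a difference of 0.98 ± 0.42 SE (adjusted p = 0.49). Zap70 differed by -0.11 (adjusted p = 0.859). The Dock8 signal on its brightest probe did not separate the groups (9.42 to 9.52 against 9.29 to 9.69), and the effect of the mutation on the transcript was not given in the sources used here. Between 36.4% and 40.7% of probes were detected per array, and the array medians were 183 to 235 intensity units.

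Myeloid and dendritic cells also express Zeb2, so their markers stand beside it. Of 22 markers 11 were detected and 10 were not, among the latter Cd14, Adgre1, C1qa, Itgax, Spi1, Clec9a and Xcr1. The summed level of the detected markers was 3849 to 5355 on the DOCK8-deficient arrays and 3422 to 4372 on the wild type arrays, overlapping. The sums include the neutrophil genes S100a8 and S100a9, high on wild type arrays 1 and 3 and DOCK8-deficient array 2. The overlap depends on these genes, so it does not show equal levels of the other markers. The brightest detected marker, Cst3, read 11.24 to 11.38 against 11.06 to 11.30 and weighs most in these sums. In this list 7 were higher, 4 lower and 0 passed, with a median of 0.23. Mpeg1 and Fcgr3 differed by 0.76 and 0.84 (limma adjusted p = 0.315 and 0.185), without overlap between groups. Over all genes, 17.1% of the brightest probes did not overlap between groups in either direction. Lyz2, Lyz1 and C1qb, named after their values were seen, differed by 0.70, 0.68 and 0.63, with overlap (limma adjusted p = 0.561, 0.565 and 0.447). The 4 lower genes were S100a8, S100a9, Csf1r and Csf3r, at -1.29, -0.88, -0.16 and -0.11. The neutrophil gene S100a8, singled out after its values were seen, read 4.68, 8.80 and 5.39 on the DOCK8-deficient arrays and 9.07, 4.72 and 8.95 on the wild type arrays, high on 3 arrays across both groups. On the wild type arrays with high S100a8 Zeb2 read 5.79 and 5.41, and on the third 5.63. On DOCK8-deficient array 2, with high S100a8, Zeb2 read 7.14, against 6.83 and 6.96 on arrays 1 and 3 of that group. The part of myeloid cells in the Zeb2 result was not tested.

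NK cells express Zeb2 and S1pr5 too. The defining NK genes Ncr1 and Eomes had no probe that passed the detection rule, while 7 of the 9 listed genes, shared by NKT cells, did. Of these 5 were higher, 2 lower and 0 passed, with a median of 0.72 and a summed level of 21544 to 24632 against 14523 to 18246, without overlap. Klre1, the brightest of them, read 13.53 to 13.64 against 12.67 to 13.11 and weighs most in these sums. Klri2, a lectin-like receptor, read 11.13, 11.73 and 11.59 against 9.70, 10.29 and 9.97 (2.82-fold, adjusted p = 0.054), and the signalling adaptor gene Tyrobp was 2.14-fold higher in the mean (adjusted p = 0.0894). Klra8, which encodes Ly49H, differed by -0.96. Of the double-positive thymocyte markers, 7 of 7 detected genes had a difference below 0, with a median of -0.49, where 49% of all genes lay above 0. The sizes varied, down to -0.05 for Cd4. The groups did not overlap for 2 of the 7, Dntt among them, against 17.1% of all brightest probes. The 1 past the threshold was Dntt, which encodes the terminal transferase of thymocytes (limma adjusted p = 0.0441). On the background-corrected scale of the main fit Dntt was at least 2.42-fold lower, a bound that does not hold without background correction. Its probe was detected on the 3 wild type arrays and on 0 DOCK8-deficient arrays, so it was tested only through the group in which it is high, and its count is not support for the list. It missed the threshold with no detection filter (0.0527), and its difference was -1.69 as fitted and -0.46 without background correction. It also missed the threshold without any 1 of DOCK8-deficient arrays 1 and 3 or the wild type arrays (0.0871 to 0.18). The summed level of the 7 detected double-positive markers, Dntt included, was 1927 to 2249 against 2299 to 2850, without overlap. As Dntt is in these sums, their separation is no support for the list either. Cd8b1, which weighs most in them, differed by -0.07 on its brightest probe and by -0.75 and -0.45 on its other detected probes. The part of double-positive cells in the results above was not tested. B cell markers (3 of 9 detected, Ly6d and Cd79b at -0.34 and -0.12) and erythroid markers (3 of 6, Tfrc and Hba-a1 at 0.53 and 0.60) had 0 that passed.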

How the data were processed

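Biotin-labelled cRNA from 3 samples per genotype was hybridised to Illumina mouse arrays, per the labels' protocols, and samples were grouped by title. The deposited scanner table holds a linear intensity and a detection p-value per probe and array, per the file headers, without background subtraction as judged from its values. The deposited series table holds log2 values, judged from their range, whose ranks match the intensities within each array (rank correlation 0.999999). Their normalization was not given in the sources used here.

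Intensities were background corrected and quantile normalized with neqc (limma 3.58.1, R 4.3.3; offset 16). Probes were named by the platform annotation: 34885 had 1 gene symbol, 18 several and 10378 none. Named probes with a detection p under 0.05 on 3 or more of 6 arrays (14559) entered lmFit and eBayes (2-sided; differences are the DOCK8-deficient mean less the wild type mean), with Benjamini-Hochberg adjustment over all of them and a threshold of 0.05. Where 1 value per gene is given, it is that of the brightest detected probe (9060 genes). Intervals are 95%, and errors of differences are moderated standard errors. Zeb2 was set against other genes by an exact permutation test. The number of arrays limits the precision. The fit was tested on simulated data. Members and gene lists were chosen with earlier results of these data known, so list counts are descriptions. The genes named were the 10 members, Dock8, the 5 genes nearest to Zeb2, and from each list its called members (up to 2 per direction) or else the 2 of smallest p. Others are named for background or, where singled out, after their values were seen. Alternatives were the background correction, scaling, the deposited table, detection filters, a trended robust prior, gene-level fits, the replicate block and leaving out each array. No slide was given, so no slide block was fitted.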

Additional observations from a re-analysis of the deposited data

How the results depend on the processing

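Every alternative kept Zeb2 higher in DOCK8-deficient cells, but not always past the threshold. With the replicate number as a block the Zeb2 difference was 1.37 with an adjusted p of 0.158, and with 1 array left out it was 1.27 to 1.46 with adjusted p of 0.0596 to 0.18. Elsewhere it passed, at 0.40 to 1.37 on the log2 scale (adjusted p from 0.00557 to 0.0498). The gap of Zeb2 to Tbx21, Klf2 and S1pr5 kept its direction in every setting tried. It fell to 0.46, 0.37 and 0.34 without background correction, where the groups overlapped for Klf2 (exact permutation p = 0.2), and ran over 1.18 to 1.62, 1.23 to 1.52 and 1.06 to 1.33 with 1 array left out. The labels do not say whether replicate numbers pair the arrays. Same-numbered deviations correlated at 0.035, -0.094 and -0.246, and 0 of 3 DOCK8-deficient arrays correlated best with their own number. With 3 arrays per group these correlations cannot exclude a pairing. In the block fit limma called 0 probes in either direction, with 590 higher and 646 lower at an unadjusted p under 0.05.

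Over all probes, 19 rose and 12 fell in the reported fit. The rises and falls were 81 and 74 without background correction, 69 and 49 with normexp per array, 29 and 33 with median scaling (22 of the 31 calls kept), 60 and 52 in the deposited table, 7 and 2 without a filter, 39 and 20 for probes detected on all 6 arrays, and 103 and 88 with a trended robust prior. At a detection p under 0.01 they were 35 and 15. With 1 array left out they were 1 to 10 and 0 to 6. The cause was not tested. Among list genes named as not passing, Klri2 passed in 7 of 15 alternatives, Lgals1 and Il2 in 6 each, Tyrobp in 5, Cd69 and Ly6c1 in 3 each, Klf6 in 2 (0.0319 without background correction, 0.00786 with the trended robust prior) and Ccl3 in 1 of 14 (0.0333 with median scaling). Over these alternatives their adjusted p ran from 0.000145 to 1. Itga4 and the other genes singled out after their values were seen were not followed through the alternatives.

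Differences near 0 changed sign in some settings. S1pr5 on ILMN_2691735 read -0.0098 without background correction, -0.0371 with normexp and -0.0485 in the deposited table, and from -0.20 to 0.42 with 1 array left out. Zeb1 on ILMN_1251561 read -0.0659 with median scaling and -0.0059 in the deposited table (-0.15 to 0.25 with 1 array left out), and Klf2 -0.0017 with median scaling (-0.084 to 0.1742). With 1 array left out the ranges were -0.1603 to 0.0847 for Tbx21, -0.16 to 0.23 for Id2 on ILMN_1236868, -0.1564 to 0.0017 on ILMN_2887239, -0.37 to 0.19 for Cd79b and -0.10 to 0.10 for Dock8. Signal near background limits Zeb2 in wild type cells, S1pr5 and Id3, and undetected probes give no level for Eomes, Prdm1 and S1pr1.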
